A study of Homo sapiens with 8 samples.

Results

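The genes described here are 35 enzymes and transporters of glucose uptake, glycolysis, lactate handling and glycogen turnover, taken from a named list and matched by Ensembl identifier to 35 of the 63241 gene rows in a table of read counts. The list sets 6 isoforms known from skeletal muscle (SLC2A4, PFKM, FBP2, PGAM2, ENO3 and PYGM) beside 7 partners used mostly elsewhere (SLC2A1, PFKL, PFKP, PGAM1, ENO1, PYGL and PYGB). The series holds 8 RNA-seq libraries labelled as HSC3, an established line from a human oral squamous cell carcinoma. By their titles, 4 libraries belong to the knockdown group (si-Col1a1, an siRNA against COL1A1; knockdown 1 to 4 here) and 4 to the control group (si-NC; control 1 to 4). The columns of the count table name the first group KO where the titles say KD, and the titles and the transfection protocol are followed here. All were transfected with 100 pmol of siRNA and Lipofectamine 3000 and collected after 48 hours. The title of the series concerns epithelial-mesenchymal transition, migration and invasion after loss of this collagen. Every library carries the label of this line, and no label states whether the replicates are independent cultures. The tests therefore reflect the spread among these libraries, technical or not. That spread includes the differences in skeletal muscle and salivary gland markers given below, which the label of a carcinoma line does not mention.

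Glycolysis splits glucose into pyruvate, and most of its steps are run by several gene copies with tissue preferences. Skeletal muscle takes up glucose through the insulin-responsive carrier GLUT4 (SLC2A4), stores it as glycogen, and breaks that store down with the muscle phosphorylase PYGM. It uses the M form of phosphofructokinase (PFKM) and beta-enolase (ENO3), where squamous epithelium uses mainly GLUT1 (SLC2A1), alpha-enolase (ENO1) and the brain and liver forms of phosphorylase (PYGB and PYGL). Carcinomas are known for high glucose uptake and lactate export, through SLC2A1, HK2, LDHA and the lactate carriers SLC16A1 and SLC16A3.

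Total counts ran from 30684584 to 61795990 per library, and the 35 genes together took 0.453% to 1.16% of them. Levels are given per library as counts per 1000000 of the column total (CPM). COL1A1 stood at 368, 123, 301 and 155 CPM in knockdown 1 to 4 and at 88.9, 8183, 476 and 689 CPM in control 1 to 4, so the labels overlapped for the targeted gene, and its lowest value was in control 1. Markers of several cell types differed widely within each label. Skeletal muscle contractile genes (22 of 23 listed were matched) took 0.00507 to 4.93% of counts in the knockdown libraries and 0.0057 to 15.4% in the control libraries, and squamous epithelial genes (16 of 16) took 0.168 to 19.7% and 0.0672 to 7.2%. Salivary gland genes took 19.6% in control 1 and 13.1% in knockdown 2, against at most 0.00986% in the other 6 libraries. Groups are therefore called by their labels. In such bulk libraries, fewer cells of a type and less RNA per cell cannot be told apart.

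Of the 35 genes, 3 had few or no reads and share most of their coding bases with exons of other annotated genes. PGAM2, the muscle phosphoglycerate mutase, had 0 reads in all 8 libraries, which allows at most 0.0485 to 0.0978 CPM for counting error alone. All of its coding bases (chr7:44062727-44065587, minus strand, GENCODE 29 on GRCh38) also lie in exons of DBNL, an actin-binding adaptor on the opposite strand, which stood between 59.4 and 173 CPM. ALDOA, the main aldolase of muscle and most other tissues, stood at only 4.53, 2.67, 2.55 and 7.04 CPM in knockdown 1 to 4 and at 6.85, 4.09, 4.68 and 3.11 CPM in control 1 to 4, and 93.8% of its coding bases are shared with an annotated gene on the same strand. LDHB, the heart-type lactate dehydrogenase subunit, stood at 4.09, 3.1, 3.24 and 3.89 CPM in knockdown 1 to 4 and at 5.25, 5.96, 8.4 and 4.5 CPM in control 1 to 4 with 93.5% shared, also with a gene on the same strand. For the other 32 genes this share was at most 21.5%, in GAPDH. Across the table, 21 of 49 protein-coding genes with at least 95% of coding bases in opposite-strand exons had 0 reads in all libraries, or 42.9%. The same held for 370 of 738 genes, or 50.1%, with at least 95% in same-strand exons, and for 6.48% of 14357 genes whose coding bases lie in no other gene's exons. Whether the overlap sets the low counts of PGAM2, ALDOA and LDHB was not tested, so their counts are not read as levels. ALDOA and LDHB were still tested, and they stay in the counts over the 34 tested members and in the isoform ratios below.

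Promoter windows of 300 bases (250 before to 50 after an annotated start, RefSeq, GRCh38.p14) were matched for 31 of the 35 genes. They are shown for muscle enolase and muscle fructose bisphosphatase, whose read levels went with the muscle markers, and for the partner ENO1, whose level did not. Capitals mark the E-box CANNTG, the motif bound by myogenic factors, searched on both strands together with the MEF2 motif.
ENO3, first start (chr17:4950302-4950601, plus strand): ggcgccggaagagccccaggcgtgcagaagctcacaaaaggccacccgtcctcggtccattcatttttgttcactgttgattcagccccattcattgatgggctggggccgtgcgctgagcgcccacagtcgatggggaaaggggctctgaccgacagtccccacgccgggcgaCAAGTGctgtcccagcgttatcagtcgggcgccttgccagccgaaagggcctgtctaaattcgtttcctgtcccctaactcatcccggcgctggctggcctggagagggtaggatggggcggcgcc
ENO3, second start (chr17:4950869-4951168, plus strand): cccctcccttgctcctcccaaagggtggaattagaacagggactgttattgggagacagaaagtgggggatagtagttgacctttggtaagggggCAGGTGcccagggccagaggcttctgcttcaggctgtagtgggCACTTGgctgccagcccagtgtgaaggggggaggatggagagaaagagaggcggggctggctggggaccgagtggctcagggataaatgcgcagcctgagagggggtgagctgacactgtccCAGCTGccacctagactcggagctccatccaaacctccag
FBP2 (chr9:94593775-94594074, minus strand): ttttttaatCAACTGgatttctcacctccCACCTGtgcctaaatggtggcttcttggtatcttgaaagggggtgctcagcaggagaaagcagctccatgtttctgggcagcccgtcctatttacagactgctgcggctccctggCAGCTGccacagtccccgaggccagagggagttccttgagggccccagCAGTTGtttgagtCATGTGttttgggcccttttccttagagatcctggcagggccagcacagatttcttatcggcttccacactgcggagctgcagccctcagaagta
ENO1 (chr1:8878637-8878936, minus strand): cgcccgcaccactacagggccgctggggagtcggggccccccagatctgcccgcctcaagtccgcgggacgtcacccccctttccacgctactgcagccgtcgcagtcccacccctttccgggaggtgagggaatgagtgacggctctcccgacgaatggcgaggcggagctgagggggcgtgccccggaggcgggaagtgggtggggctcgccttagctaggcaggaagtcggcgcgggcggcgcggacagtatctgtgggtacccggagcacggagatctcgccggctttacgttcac
The 2 ENO3 windows hold 1 and 3 E-boxes, the FBP2 window 5 and the ENO1 window 0. The windows not shown did not all keep this contrast. Among muscle isoforms PGAM2 had 4, and PFKM had 1 in the window at chr12:48122397-48122696 and 0 in its others. Among partners PYGB had 2, PFKP 0 to 3 by window, and SLC2A1, PFKL, PGAM1 and PYGL 0. No window was matched for PYGM and SLC2A4. An E-box is present in 68.7% of all 35116 promoter windows of this length, with a median of 1. No MEF2 match was found in any of the 60 windows of these genes, and 0.572% of all windows hold one. These matches describe letters only.

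**Figure D1:**
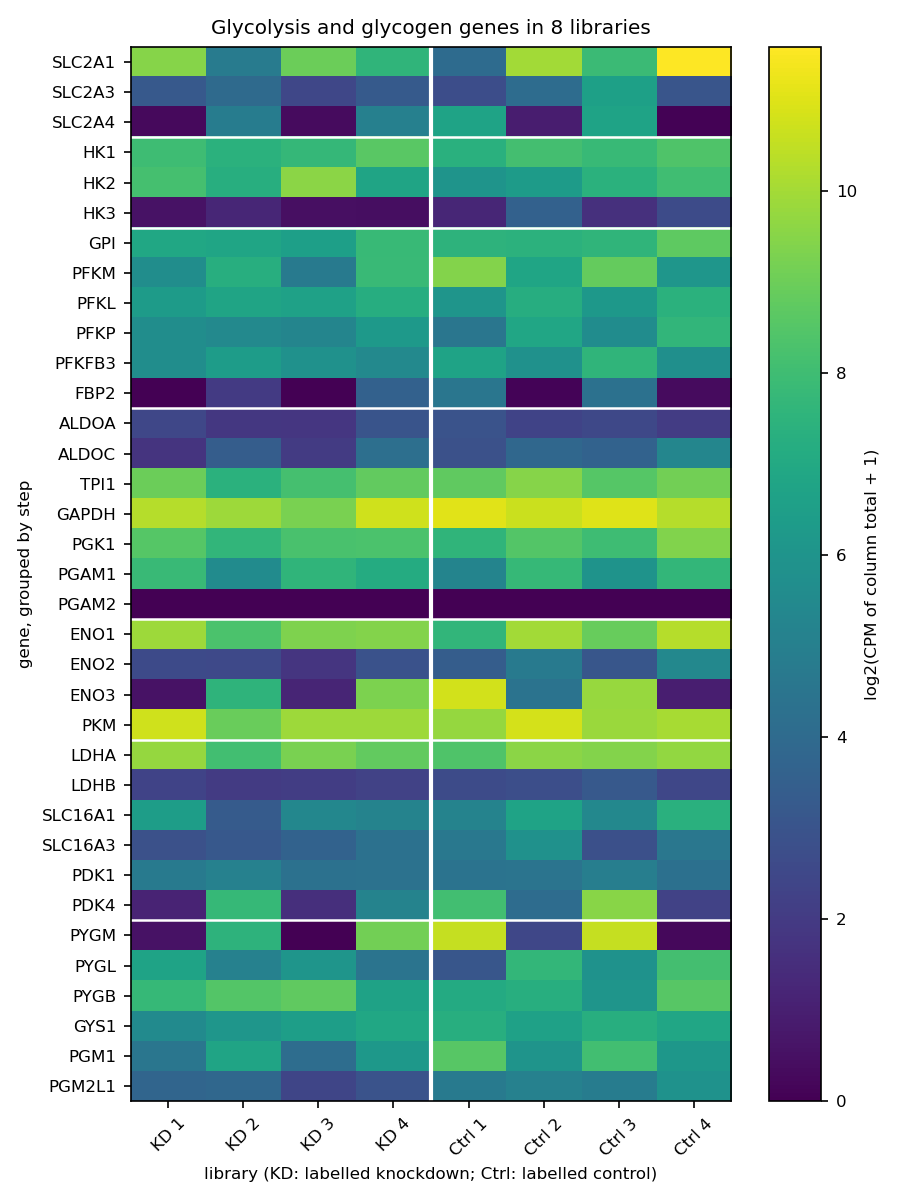
Level of the 35 genes (rows, grouped by step) in the 8 libraries (columns) as log2(CPM of the column total + 1). SLC2A4, FBP2, ENO3, PYGM and PDK4 are each higher in control 1, control 3, knockdown 2 and knockdown 4 than in knockdown 1, knockdown 3 and control 4, and PGAM2 is at 0 throughout.

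Glucose entry differed more between single libraries than between labels. SLC2A1, the basal glucose carrier GLUT1 (chr1:42925375-42959176, minus strand), stood at 714, 26.8, 498 and 187 CPM in knockdown 1 to 4 and at 15.5, 995, 233 and 3052 CPM in control 1 to 4. Control 4 was the highest and control 1 the lowest library, both under the same label. The level of SLC2A1 spanned 7.53 on the log2(CPM + 1) scale, more than in 99% of the 21192 genes tested, and its log2 fold change between labels was -1.21 (SE 1.38). Without control 4 that fold change was 0.19. Squamous markers took 0.168% and 0.0672% of counts in knockdown 2 and control 1, the 2 libraries lowest in SLC2A1, and 10.5% in knockdown 4. They took 6.75% in control 4, the library highest in SLC2A1, against 19.7% in knockdown 1, 15.4% in knockdown 3, 7.2% in control 2 and 2.27% in control 3. The summed CPM of 10 hypoxia-inducible genes outside glycolysis was highest in control 4 (1917) and lowest in control 1 (332) as well. Most of that sum was NDRG1, at 1503 CPM in control 4 and 111 CPM in control 1. VEGFA, BNIP3 and ANKRD37 were higher in control 1 than in control 4, and the other genes of the list were lower. The part of squamous content or hypoxia in the SLC2A1 level was not tested.

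SLC2A4, the insulin-responsive carrier of muscle and fat (chr17:7281667-7288257, plus strand), stood at 0.233, 28, 0.274 and 31.7 CPM in knockdown 1 to 4 and at 106, 0.906, 103 and 0.0384 CPM in control 1 to 4. The same 4 libraries that held SLC2A4 above 20 CPM held muscle creatine kinase (CKM) at 588, 1359.8, 5523 and 4519 CPM (knockdown 2 and 4, control 1 and 3). In the other libraries CKM was 40.8 CPM in control 2 and under 1 CPM in knockdown 1, knockdown 3 and control 4. The third carrier, SLC2A3, is the high-affinity GLUT3 of neurons and leukocytes. It stood at 8.47, 15.2, 4.47 and 8.77 CPM in knockdown 1 to 4 and at 5.57, 16.1, 95.8 and 7.27 CPM in control 1 to 4, with control 3 far above the rest. Its log2 fold change of -1.52 (SE 0.826) was 0.03 without control 3. A near-identical paralog, SLC2A14, stood at no more than 1.24 CPM, and 3 annotated pseudogene rows held 1.84% to 41.5% of the reads of SLC2A3, so its level is uncertain where it is low.

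Hexokinases trap glucose inside the cell as glucose 6-phosphate. HK1, the form of most tissues, was among the steadiest of the 35 genes, at 249, 167, 207 and 386 CPM in knockdown 1 to 4 and at 164, 275, 219 and 331 CPM in control 1 to 4. HK2, the inducible form found in insulin-sensitive tissue and raised in many carcinomas, stood at 289, 154, 754 and 107 CPM in knockdown 1 to 4 and at 63.6, 80.1, 169 and 263 CPM in control 1 to 4. Knockdown 3 was the highest library and control 1 the lowest, while knockdown 2 and knockdown 4 lay inside the control range. The HK2 log2 fold change of 1.57 (SE 0.788) was the largest positive value among the 34 genes tested (edgeR adjusted p = 0.981), and was 0.54 without knockdown 3. HK3, a hexokinase of myeloid cells, was scarce, at 0.498, 1.37, 0.384 and 0.329 CPM in knockdown 1 to 4 and at 1.36, 11.1, 2.08 and 5.23 CPM in control 1 to 4. All 4 control libraries lay above knockdown 1, 3 and 4, and knockdown 2 lay just above control 1. The neutrophil receptor CSF3R stood at 0.997, 2.15, 1.43 and 0.877 CPM in knockdown 1 to 4 and at 5.82, 15.3, 18.9 and 3.92 CPM in control 1 to 4, without overlap between the labels and higher in control, as for most HK3 values. The other 3 neutrophil markers overlapped between the labels. S100A12 stood at 24.8, 0.261, 48 and 8.06 CPM in knockdown 1 to 4 and at 0.0544, 5.6, 0.868 and 0.115 CPM in control 1 to 4, and its mean was higher in knockdown. CXCR2 stood at 14.5, 0.587, 16.1 and 34.8 CPM in knockdown 1 to 4 and at 0.544, 5.08, 21.6 and 2.00 CPM in control 1 to 4, also with the higher mean in knockdown, and FCGR3B was at most 3.69 CPM. The summed CPM of the 4 markers was 4.07 to 66.9 in knockdown and 6.52 to 45.1 in control, and 0 of these markers were at 0. Of the other leukocyte markers, CSF1R ran from 15.2 to 41.4 CPM in knockdown and from 34.2 to 191 CPM in control. ITGAM ran from 2.96 to 8.53 CPM in knockdown and from 7.61 to 18 CPM in control. Both overlapped between the labels with the higher mean in control, as did PTPRC and CD3E. CD79A and LYZ had the higher mean in knockdown, and CD68 was at most 0.329 CPM. LYZ is also among the salivary gland genes. It stood at 14122 CPM in knockdown 2 and 9060 CPM in control 1, against 22.3 to 95.1 CPM in the other libraries. The CD79A means were close, at 1.14 CPM in knockdown and 1.06 CPM in control, and its highest values lay in the same libraries (2.77 CPM in knockdown 2 and 3.59 CPM in control 1). Leukocyte content was not tested as a part of the HK3 difference.

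Phosphofructokinase commits sugar to glycolysis, and its muscle subunit was highest in the 4 libraries with the most CKM. PFKM (chr12:48105139-48146404, plus strand) stood at 50.5, 149.7, 26.2 and 227 CPM in knockdown 1 to 4 and at 688, 110.0, 464 and 67.7 CPM in control 1 to 4. The 2 highest libraries were control 1 and control 3, followed by knockdown 4 and knockdown 2. PFKL, the liver subunit, stood at 81.1, 107, 98.8 and 148 CPM in knockdown 1 to 4 and at 64.5, 149, 70.9 and 169 CPM in control 1 to 4. PFKP, the platelet subunit common in carcinomas, stood at 50.2, 42.1, 37 and 73.7 CPM in knockdown 1 to 4 and at 22, 116, 47.8 and 199 CPM in control 1 to 4. Each had its lowest value in control 1 and its highest in control 4. In reads, PFKM outnumbered PFKL 10.7-fold in control 1 and 6.55-fold in control 3, while the ratio was 0.265 in knockdown 3. Per kilobase of exon, PFKM was at 94.1 and PFKL at 7.22 CPM per kb in control 1, against 3.58 and 11.1 in knockdown 3.

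FBP2, the muscle fructose 1,6-bisphosphatase that runs this step backwards (chr9:94558720-94593793, minus strand), stood at 0, 2.93, 0 and 11 CPM in knockdown 1 to 4 and at 22.3, 0.0809, 18.8 and 0.25 CPM in control 1 to 4. The 0 reads in knockdown 1 and knockdown 3 allow levels up to 0.0498 and 0.0823 CPM. Its liver counterpart FBP1 stood at 0.465, 19.9, 1.23 and 0.164 CPM in knockdown 1 to 4 and at 8.43, 7.01, 1.27 and 2.56 CPM in control 1 to 4. It was highest in knockdown 2 and lowest in knockdown 4, and the FBP2 to FBP1 read ratio was 0.148 and 61.8 in these libraries. GPI, which interconverts glucose and fructose phosphates, stood at 119.7, 112, 90.3 and 223 CPM in knockdown 1 to 4 and at 178, 170.2, 191 and 415 CPM in control 1 to 4, with the highest value in control 4. PFKFB3, which makes the activator of phosphofructokinase, ran from 42.5 to 188 CPM with the highest value in control 3.

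**Figure D2:**
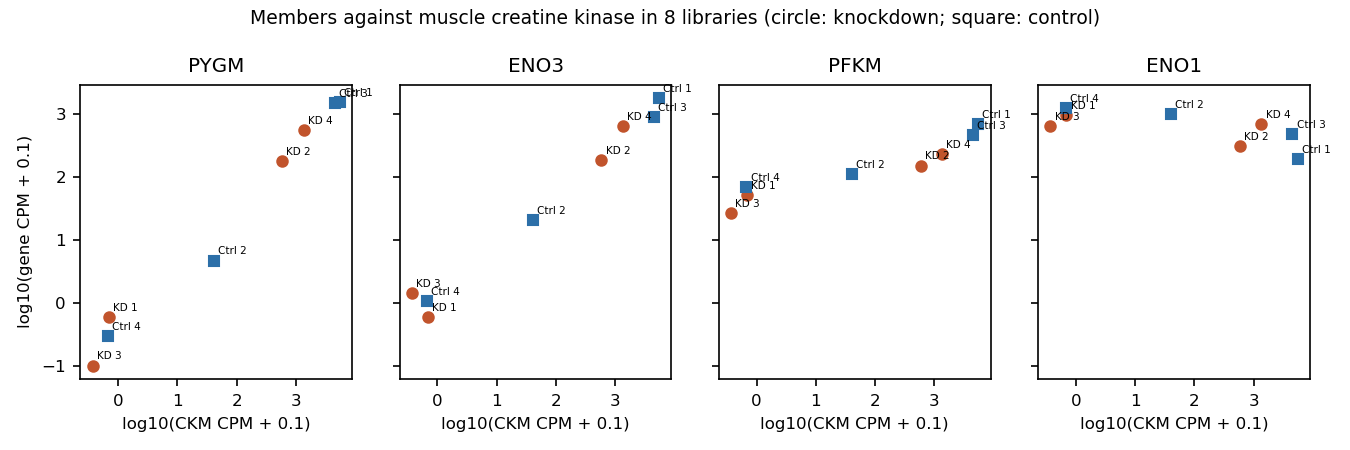
Level of 4 genes against CKM, the muscle creatine kinase, each as log10(CPM + 0.1), with 1 point per library. PYGM, ENO3 and PFKM are highest in the 4 libraries with the most CKM, while ENO1 is lowest in control 1, the library with the most CKM.

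In the triose steps, GAPDH and its neighbours were abundant everywhere. GAPDH, the dehydrogenase that makes NADH, stood at 1246, 937, 607 and 1682 CPM in knockdown 1 to 4 and at 2152, 1623, 2056 and 1244 CPM in control 1 to 4, with the 2 highest values in control 1 and control 3. Its 65 annotated pseudogene rows together held between 0.991% and 2.29% of its reads. TPI1, triose phosphate isomerase, ran from 165 to 709.7 CPM and PGK1, the first ATP-making kinase, from 190.2 to 670.0 CPM. PGAM1, the phosphoglycerate mutase outside muscle, stood at 227, 47.1, 191 and 137 CPM in knockdown 1 to 4 and at 36.2, 214, 61.3 and 203 CPM in control 1 to 4. Its lowest 3 libraries were control 1, knockdown 2 and control 3, all with high muscle markers, though knockdown 4 stood at 137 CPM with CKM at 1359.8. ALDOC, the brain aldolase, stood at 2.31, 9.58, 2.99 and 17.9 CPM in knockdown 1 to 4 and at 6.36, 13.4, 11.7 and 38.6 CPM in control 1 to 4, highest in control 4.

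Enolase, which makes phosphoenolpyruvate, has 3 forms in the list. ENO1, the form of most tissues (chr1:8861000-8879250, minus strand), stood at 942, 310.0, 645 and 685 CPM in knockdown 1 to 4 and at 193, 994, 477 and 1245 CPM in control 1 to 4. ENO3, beta-enolase of muscle (chr17:4948092-4957131, plus strand), stood at 0.498, 183, 1.32 and 636 CPM in knockdown 1 to 4 and at 1791, 20.3, 876 and 0.961 CPM in control 1 to 4. Between its lowest and highest library ENO3 spanned 10.22 on the log2(CPM + 1) scale, more than 99.8% of tested genes, and ENO1 2.68. Per kilobase of exon, ENO3 was at 417 and ENO1 at 36.5 CPM per kb in control 1, 148 and 129.9 in knockdown 4, and 0.116 and 178 in knockdown 1. Control 1 and control 3 were the libraries in which ENO3 had more reads than ENO1, by 9.29-fold and 1.84-fold, and in control 4 the ENO3 to ENO1 ratio was 0.00078.

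ENO2, gamma-enolase of neurons and neuroendocrine cells (chr12:6913745-6923698, plus strand), stood at 5.00, 4.92, 2.41 and 6.66 CPM in knockdown 1 to 4 and at 9.51, 25.3, 7.63 and 40.9 CPM in control 1 to 4. The 4 knockdown libraries all lay below the 4 control libraries, with a narrow gap between knockdown 4 and control 3. Its range did not follow the muscle markers, since control 4 and control 2 were highest. PKM, pyruvate kinase, stood at 1709.6, 492, 942 and 946 CPM in knockdown 1 to 4 and at 860.4, 1837, 926 and 1084 CPM in control 1 to 4, and is counted as a whole gene, so its splice forms are not separated here.

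Genes of pyruvate and lactate handling differed in which libraries were high. LDHA, which reduces pyruvate to lactate, stood at 845, 266, 600.2 and 437 CPM in knockdown 1 to 4 and at 331, 756, 696 and 831 CPM in control 1 to 4, and the labels overlapped. The carrier SLC16A1 stood at 84.7, 8.99, 39.4 and 35 CPM in knockdown 1 to 4 and at 35, 105, 42 and 164 CPM in control 1 to 4, lowest in knockdown 2 and highest in control 4. SLC16A3, the lactate exporter of glycolytic cells, stood at 6.31, 8.18, 11.5 and 19 CPM in knockdown 1 to 4 and at 23.6, 56.4, 6.2 and 23.2 CPM in control 1 to 4. PDK1 and PDK4 block pyruvate dehydrogenase, PDK4 in fasted or fat-burning muscle. PDK1 was the least variable of the tested genes in the list, at 26.1, 32.9, 19.1 and 19.6 CPM in knockdown 1 to 4 and at 20.1, 20.8, 30.2 and 18.6 CPM in control 1 to 4. PDK4 (chr7:95583499-95596491, minus strand) stood at 1.23, 218, 1.95 and 35.7 CPM in knockdown 1 to 4 and at 264, 15.9, 729 and 3.92 CPM in control 1 to 4. Its highest library was control 3, and per 100 CKM reads it had 16.1 in control 3, 4.78 in control 1, 37 in knockdown 2 and 2.63 in knockdown 4. PDK4 thus varied among the 4 libraries with much CKM, where ENO3 had between 19.4 and 46.7 reads per 100 CKM reads and PYGM between 27.5 and 40.4. Fat cells also express PDK4, and 4 adipocyte markers summed to 11, 59.7, 17.7 and 22 CPM in knockdown 1 to 4 and to 26.4, 125, 172 and 242 CPM in control 1 to 4. The highest sum was in control 4, where PDK4 was low and FABP4 gave 241 CPM of it. Endothelial cells also express FABP4, and the summed endothelial markers were lowest in control 4, at 129 CPM, and highest in knockdown 4, at 503 CPM. The source of FABP4 was not tested. ADIPOQ, a defining fat cell marker, was at 0 in knockdown 1, knockdown 3, control 2 and control 4 and stood at 36.3 CPM in control 3, 20.8 in knockdown 2, 4.32 in control 1 and 3.78 in knockdown 4. The part of fat cells in the PDK4 level was not tested.

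Glycogen phosphorylase, which releases glucose 1-phosphate from glycogen, had the widest spread of all. PYGM, the muscle form (chr11:64746389-64760297, minus strand), stood at 0.498, 175, 0 and 549.8 CPM in knockdown 1 to 4 and at 1519, 4.58, 1485 and 0.192 CPM in control 1 to 4. It had 0 reads in knockdown 3, where up to 0.0823 CPM is allowed, and spanned 10.57 on the log2(CPM + 1) scale, more than 99.8% of tested genes. PYGL, the liver form, stood at 105, 33.3, 65.5 and 20.9 CPM in knockdown 1 to 4 and at 7.5, 199, 58.5 and 273 CPM in control 1 to 4, lowest in control 1 and highest in control 4. PYGB, the brain form, stood at 218, 358, 424 and 101 CPM in knockdown 1 to 4 and at 134, 151, 65.1 and 377 CPM in control 1 to 4. In reads, PYGM exceeded PYGL 202-fold in control 1, 26.3-fold in knockdown 4 and 25.4-fold in control 3, and the 2 non-muscle forms also changed order, with PYGB at 17.8 times PYGL in control 1 and 0.76 times in control 2. GYS1, the glycogen synthase of muscle and most tissues, ran only from 45.8 to 154 CPM, and its 2 highest libraries were control 1 and control 3.

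Phosphoglucomutases link glycogen to glycolysis. PGM1, the main enzyme, stood at 22, 107, 16.4 and 72.2 CPM in knockdown 1 to 4 and at 374, 63.5, 272 and 68.3 CPM in control 1 to 4, again highest in control 1 and control 3. PGM2L1, which makes the glucose 1,6-bisphosphate that primes these enzymes (chr11:74330318-74398473, minus strand), stood at 12.5, 13.5, 4.39 and 6.91 CPM in knockdown 1 to 4 and at 26.1, 32.6, 28.5 and 57.9 CPM in control 1 to 4. Every knockdown library lay below every control library, with means of 9.31 ± 4.37 and 36.3 ± 14.6 CPM (SD, n = 4 each). Control 4, with little CKM, was the highest library, and its order within labels did not follow the muscle markers.

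Counted together, all 5 muscle isoforms with reads were highest in control 1, the library with the highest CKM level, where 7.83% of the 21192 tested genes had their maximum. The 7 partners outside muscle had their maximum in control 4 for 5 genes, against 20.2% of tested genes, and in knockdown 1 or knockdown 3 for PGAM1 and PYGB. The median span on the log2(CPM + 1) scale was 6.68 for the 5 muscle isoforms, 2.68 for the 7 partners and 1.66 for all tested genes. The summed muscle markers (22 of 23 matched) were also highest in control 1, at 154443 CPM, with control 3 nearly equal at 153881 CPM. Most of both sums was TTN, at 96282 CPM in control 1 and 97646 CPM in control 3. The sums ran from 50.7 to 49338 CPM in knockdown and from 57 to 154443 CPM in control. TNNC1 and MYOT were at 0 in knockdown 3, and ACTN3 was at 0 in knockdown 1, control 3 and control 4.

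**Figure D3:**
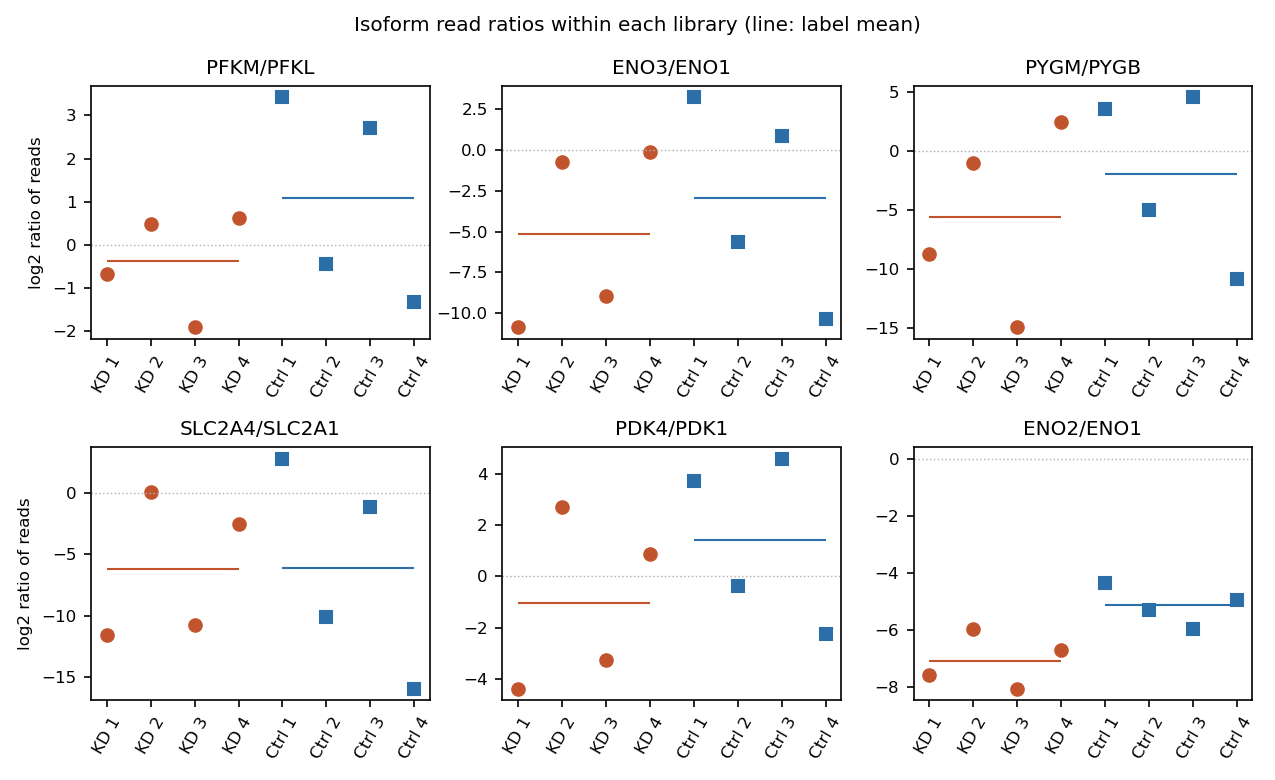
Log2 ratio of the reads of 2 genes within each library (circles: knockdown, squares: control, lines: label means). The muscle to non-muscle ratios PFKM/PFKL, ENO3/ENO1, PYGM/PYGB and SLC2A4/SLC2A1 are spread over both labels, while all 4 knockdown values of ENO2/ENO1 lie below the control values, from -8.05 to -5.97 against -5.96 to -4.34.

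A ratio of 2 genes in a library does not depend on library size. Such log2 read ratios, with 0.5 added to each count, were compared between labels for 15 isoform pairs by an exact two-sided permutation test over 70 assignments, whose smallest p is 0.0286. None passed after Benjamini-Hochberg adjustment over the 15 pairs. A pair that alone reaches the smallest exact permutation p adjusts only to 0.429, so no pair could pass on its own. The lack of a pass therefore does not show that the ratios were equal. The muscle pairs had wide spreads: the mean log2 ENO3/ENO1 was -5.16 ± 5.52 for the knockdown label and -2.96 ± 6.17 for the control label (SD, n = 4 each, exact permutation p = 0.571, adjusted p = 0.857). For PYGM/PYGB the difference was -3.59 (exact permutation p = 0.514), for PFKM/PFKL -1.47 (exact permutation p = 0.314) and for SLC2A4/SLC2A1 -0.08 (exact permutation p = 0.971), each with an adjusted p of 0.857 or more. ENO2/ENO1 had the smallest p: its log2 ratio was -7.55, -5.97, -8.05 and -6.68 in knockdown 1 to 4 and -4.34, -5.29, -5.96 and -4.93 in control 1 to 4. The labels did not overlap, though knockdown 2 and control 3 nearly met, with a difference of -1.94 (exact permutation p = 0.0286, adjusted p = 0.429). Ratios that contain LDHB or ALDOA are limited by the shared exons described above, and PGAM2 gave no ratio.

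Between the labels, no member passed the edgeR quasi-likelihood test, as no gene did: 0 of 34 tested members were called, and 0.0% of 21192 genes, at an adjusted p under 0.05. At an unadjusted p under 0.05 stood 4 members, PGM2L1, HK3, ENO2 and PGM1, against 1013 genes or 4.78% of all tested. All 4 had lower fitted values in knockdown, where 1.88% of tested genes were lower at that p, and no member was higher, beside 2.9% of tested genes. The log2 fold change was -1.81 (SE 0.426) for PGM2L1, which ranked 31 by p among all tested genes, -2.79 (SE 0.783) for HK3, -1.98 (SE 0.576) for ENO2 and -1.88 (SE 0.777) for PGM1. All 4 had an adjusted p of 0.981 in edgeR. The CPM of the labels did not overlap for ENO2, LDHB and PGM2L1, that is 3 of 34, against 2.35% of tested genes, and all 3 were lower in knockdown (1.47% of tested genes). The LDHB counts are not read as a level, as above. On TMM-scaled CPM, the scaling of the edgeR fit, the members without overlap were instead HK3, ENO2 and PGM2L1. The share over all tested genes was not computed on that scale.

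DESeq2 called PGM2L1 (adjusted p = 0.0254) and HK3 (adjusted p = 0.0302), where it called 127 of the 20750 genes to which it gave an adjusted p, or 0.612%, and limma-voom called 0.0%. In simulated counts with the spread of these libraries, edgeR recovered 0% of genes raised 2-fold, 4% of those lowered 4-fold and 56% of those raised 16-fold (50 genes each). Each gene was drawn independently there, so genes that move together with tissue markers were not simulated. With the log2 summed level of the muscle markers as a covariate, the fold changes of PGM2L1, HK3, ENO2 and PGM1 were -1.88, -2.79, -1.91 and -1.28, with edgeR adjusted p = 0.655 for each, and 6 members stood at an unadjusted p under 0.05, beside 7.56% of tested genes. In an added comparison, chosen after seeing the data, only knockdown 1 and 3 and control 2 and 4 were kept (2 libraries a label), whose muscle markers took under 1% of counts. There 10 of 33 members stood at an unadjusted edgeR p under 0.05, beside 10.6% of 22260 genes, and none was called.

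**Figure D4:**
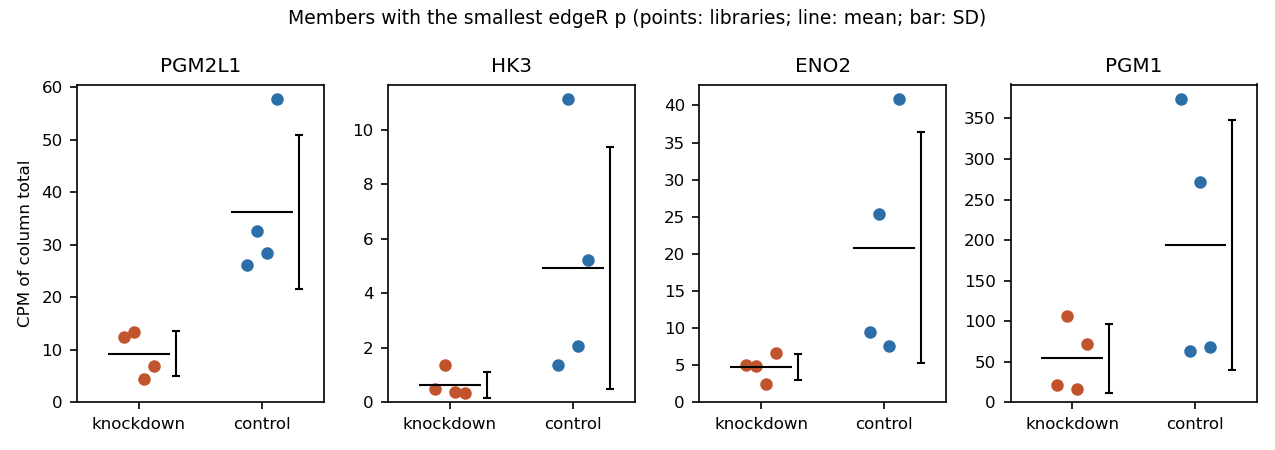
CPM of the column total of the 4 members with the smallest edgeR p, by label (points: libraries, horizontal lines: means, bars: SD, n = 4 each). The labels are apart for PGM2L1 and ENO2, touch for HK3 (knockdown 2 at 1.37 and control 1 at 1.36 CPM) and overlap for PGM1.

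Over the 34 tested members, 25 had a lower and 9 a higher fitted value in knockdown, with a median log2 fold change of -0.68, beside 53.2% lower and a median of -0.05 over all tested genes. All 5 muscle isoforms were fitted lower, at -2.14 to -1.60 on the log2 scale, though SLC2A4, ENO3 and PYGM turned to 0.98, 0.27 and 0.52 with the muscle covariate. The standard errors of the 5 without it were 0.883 to 2.59. Single libraries moved these values: without control 1 the ENO3 fold change was -0.38 and without knockdown 4 it was -3.73. The 7 partners had a median of 0.11, with 3 fitted lower and 4 higher. Abundant shared enzymes had fitted differences of -0.54 (SE 0.55) for GAPDH, -0.08 (SE 0.493) for PGK1, -0.34 (SE 0.50) for TPI1, 0.55 (SE 0.704) for PGAM1 and -0.66 (SE 0.424) for GPI. ENO1, PKM, LDHA and PFKL, at 0.11 (SE 0.659), 0.05 (SE 0.599), 0.02 (SE 0.546) and 0.12 (SE 0.383), turned to -0.17, -0.21, -0.29 and -0.06 when library totals replaced TMM scaling. That scaling shifted the median of all tested genes from -0.05 to -0.21.

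**Figure D5:**
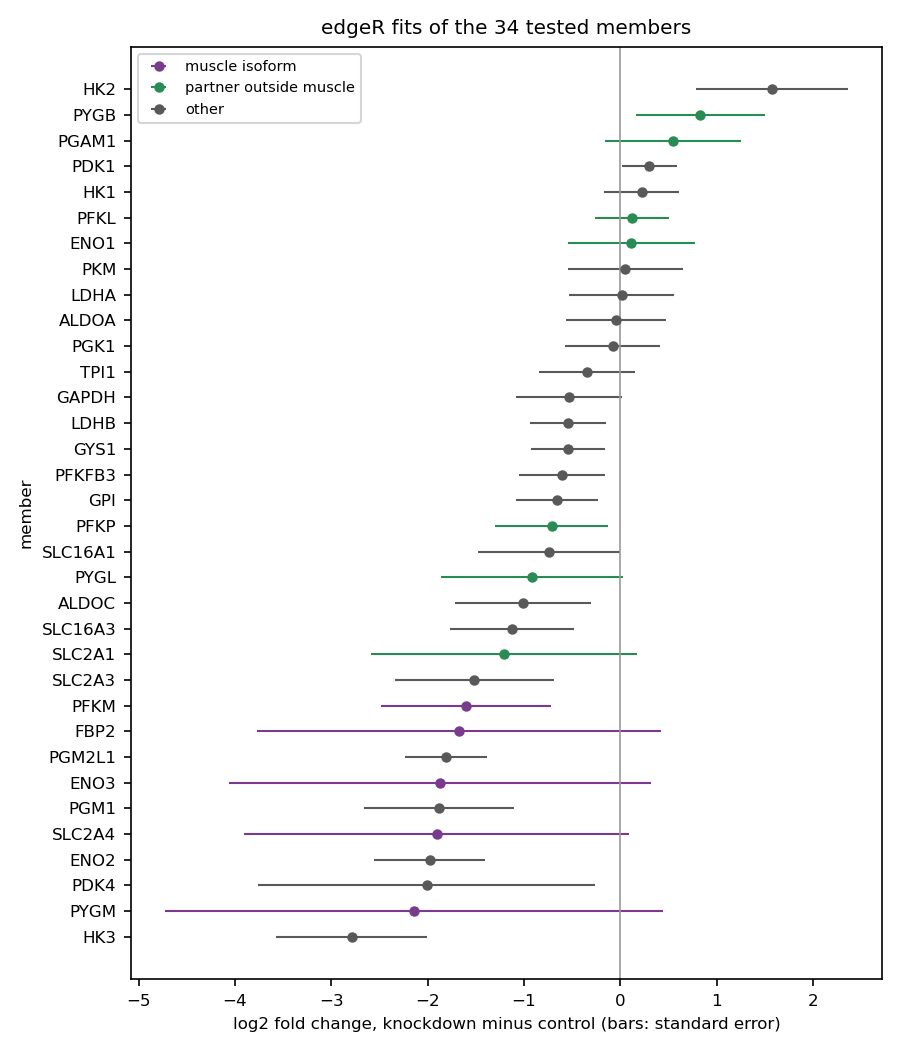
edgeR log2 fold change of the 34 tested members, knockdown minus control, with standard errors as bars. HK2 is the highest and HK3 the lowest, and the muscle isoforms FBP2, ENO3, SLC2A4 and PYGM have standard errors of 2.00 to 2.59. With the muscle covariate ENO3, SLC2A4 and PYGM turn positive.

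Of 71 other genes of these pathways (further isoforms, pyruvate dehydrogenase, glycogen debranching and branching, phosphorylase kinase and phosphatase targeting subunits), 61 passed the filter on low counts. None passed the edgeR test, and at an unadjusted p under 0.05 stood 3 lower and 1 higher in knockdown, or 6.56% of the 61 against 4.78% of all tested genes. With 47 of 61 fitted lower (77.0%), the median log2 fold change was -0.45, beside 53.2% and -0.05 over all tested genes. Control 1 or control 3, the libraries with the most CKM, held the maximum of 47.5% of the 61 genes, beside 27.0% of all tested genes. The 3 of smallest p in the lower direction were PDHA1 and PDHB, the subunits of the first pyruvate dehydrogenase enzyme, at -0.99 (SE 0.389) and -0.84 (SE 0.347), and PPP1R3B, a glycogen-targeting subunit, at -1.42 (SE 0.566) in edgeR. PDHA1 stood at 20.1, 47, 23.2 and 53.9 CPM in knockdown 1 to 4 and at 74, 39.4, 94.7 and 101 CPM in control 1 to 4. In the higher direction they were PPP1R3D, another glycogen-targeting subunit, at 0.89 (SE 0.389), PHKG2, the liver phosphorylase kinase catalytic subunit, at 0.55 (SE 0.364), and PGM2, a phosphopentomutase, at 1.12 (SE 0.909). PDHA1 overlapped between labels, with knockdown 4 and knockdown 2 above control 2.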

How the data were processed

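RNA-seq libraries labelled HSC3 (4 knockdown, 4 control) were analysed from the deposited table of read counts per gene, which the authors made with STAR and featureCounts (Subread) on hg38, per the submitters' processing notes. Their versions, the annotation and the strandedness were not given in the sources used here. PolyA RNA is the labelled molecule, while the extraction protocol describes depletion of ribosomal RNA. Exon overlaps and lengths came from GENCODE 29 on GRCh38, and promoters from RefSeq. Gene names came from a separate list, whose names differ from GENCODE 29 for some genes.

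Genes were tested with edgeR 4.0.16 (quasi-likelihood F test, TMM factors, filterByExpr, Benjamini-Hochberg over 21192 genes, threshold 0.05) in R 4.3.3. No covariate was used in the reported fit. DESeq2 1.42.0, limma-voom (limma 3.58.1), other scalings and filters, a muscle marker covariate, a replicate block and leaving out each library were alternatives. Isoform ratios used 0.5 added to each count and exact permutation tests. CPM was computed from column totals of 30684584 to 61795990 counts. A count of 0 allows up to 3 counts, for counting error only. The edgeR procedure was tested on simulated data with a biological coefficient of variation of 0.2, where 98% of 50 genes changed 2-fold were recovered.

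The members, marker lists and tests were chosen with earlier results of these data known. Values in every library are given for the muscle isoforms, their partners, the genes of the isoform pairs, members called or not overlapping, the 5 other members of largest range and the most abundant of each role. Of the other pathway genes, the 3 of smallest p in each direction are named. HK3, PGM1 and GPI were also given in every library, chosen after their values were seen.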

Additional observations from a re-analysis of the deposited data

Results flagged for a closer look

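Among 98 sets of 4 libraries (a gene or an isoform log2 ratio within a label) checked for a library far from the other 3, 4 stood out, all of them genes, where chance gives about 1 in 20. SLC2A3 was at 95.8 CPM in control 3, against 5.57 to 16.1 CPM in the other control libraries. GPI was at 415 CPM in control 4, against 170.2 to 190.7 CPM in the other control libraries. HK3 was at 1.37 CPM in knockdown 2, against 0.329 to 0.498 CPM in the other knockdown libraries. PDK4 was at 218 CPM in knockdown 2, against 1.23 to 35.7 CPM in the other knockdown libraries.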

How the results depend on the processing

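No gene was called by edgeR under the other scalings, filters, the muscle covariate or the block, and DESeq2 called 127. Leaving out 1 library gave 0 to 1 calls (1 without knockdown 2) and 3 to 5 members without overlap (5 without knockdown 4, beside 3.94% of tested genes, and 4 without knockdown 2, beside 9.33%). Library totals turned the genes at an unadjusted p under 0.05 from 615 higher and 398 lower to 397 and 488. Fold changes of single members changed sign as follows, and the cause was not tested. With the muscle covariate they were 0.98 for SLC2A4, 0.14 for ALDOA, -0.11 for ENO1, 0.27 for ENO3, -0.29 for PKM, -0.40 for LDHA and 0.52 for PYGM. With library totals they were -0.057 for PFKL, -0.17 for ENO1, -0.21 for PKM and -0.29 for LDHA. In the 4 libraries with few muscle markers they were -0.35 for PFKL, 0.43 for PFKFB3, 0.42 for ALDOA and -0.056 for ENO1. With limma-voom they were 0.032 for ALDOA, -0.092 for PKM and -0.14 for LDHA, and without a filter -0.018 for LDHA. Leaving out 1 library gave ranges of -0.30 to 0.34 for ALDOA, -0.18 to 0.51 for ENO1, -0.33 to 0.28 for LDHA, -0.077 to 0.37 for PFKL, -0.25 to 0.38 for PGK1, -0.37 to 0.32 for PKM, -1.79 to 0.19 for SLC2A1 and -1.84 to 0.026 for SLC2A3. For the log2 ratios the ranges were -3.95 to 0.45 for FBP2/FBP1, -1.98 to 0.19 for PFKM/PFKP, -0.79 to 0.41 for PGM2L1/PGM1, -5.50 to 0.69 for PYGM/PYGL, -0.83 to 0.37 for SLC16A1/SLC16A3 and -3.36 to 2.88 for SLC2A4/SLC2A1. The fold changes of PGM2L1 (-2.09 to -1.51), HK3 (-3.27 to -2.06), ENO2 (-2.28 to -1.44) and PGM1 (-2.33 to -1.14) stayed negative without any 1 library.

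Libraries with the same number deviated in opposite directions (correlations of -0.66 to -0.37), and no library correlated best with its own number. These correlations take in the differences in muscle, gland and squamous markers given above. The highest was 0.70, between knockdown 2 and control 1, the 2 libraries high in gland markers. They therefore cannot show whether libraries of the same number share a culture or batch, which no label states. With the replicate block edgeR called 0 genes, 352 stood at an unadjusted p under 0.05, and PKM and LDHA changed sign, to -0.052 and -0.15. The depth limits HK3 and FBP2, which had few reads in several libraries.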

Other observations

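Of the other pathway genes, 3 were chosen after their values were seen. PPP1R3A, the muscle subunit that targets a phosphatase to glycogen, stood at 0, 15.6, 0 and 43.9 CPM in knockdown 1 to 4 and at 104, 1.29, 136 and 0 CPM in control 1 to 4, highest in control 3 and control 1, where CKM was also highest. TXNIP, a glucose-induced inhibitor of glucose uptake, stood at 39.2, 806, 83.4 and 475 CPM in knockdown 1 to 4 and at 939.6, 289.9, 1696 and 126 CPM in control 1 to 4, highest in the same 2 control libraries. HIF1A, the oxygen-regulated transcription factor subunit, stood at 401, 54.8, 262 and 134 CPM in knockdown 1 to 4 and at 30.3, 281, 76.1 and 787 CPM in control 1 to 4, highest in control 4 and lowest in control 1, the same 2 extremes as SLC2A1.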
